A study of Mus musculus with 55 samples.

Results

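The liver transcripts of 10 genes of iron regulation were described across mouse lines of the Collaborative Cross (CC), a panel of recombinant inbred lines bred from several founder strains. The genes were the hepcidins Hamp and Hamp2, the hepcidin target Slc40a1, the regulators and readouts of bone morphogenetic protein (BMP) signalling Bmp6, Id1 and Smad7, the transferrin genes Trf and Tfrc, and the ferritin subunits Fth1 and Ftl1. They were chosen by gene symbol, not by their levels, though with earlier results of these data known. All 10 were found among the 37620 genes of the files. RNA from whole liver of 55 male mice was sequenced without any treatment of the animals, which were 8.0 to 11.9 weeks old and weighed 12.8 to 38.0 g. The 29 lines differ in how many mice were measured: 8 lines had a single mouse, 16 had a pair and 5 had 3. The line is the only factor of the design, so there is no control group and each line was set against the others.

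Hepcidin is a peptide hormone that hepatocytes secrete when body iron is high. It binds ferroportin, the iron exporter encoded by Slc40a1, and triggers its breakdown, so that less iron leaves gut cells and macrophages. Whether the product of Hamp2 acts in this way is not shown by transcript levels. Liver sinusoidal endothelial cells sense iron and release BMP6, which acts on BMP receptors of the hepatocyte, and phosphorylated SMAD proteins then switch on Hamp together with the target genes Id1 and Smad7. Another input comes from interleukin 6 and STAT3 during inflammation. Transferrin (Trf) carries iron in plasma, transferrin receptor 1 (Tfrc) takes it into cells, and ferritin, built from heavy (Fth1) and light (Ftl1) chains, stores it. Ferritin and Tfrc are also controlled after transcription by iron regulatory proteins, and for ferritin transcript levels do not show this step.

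Before any result, 2 lines need a remark. When the mice were correlated over 10340 genes, line mates had a median correlation of 0.765, but all 5 mice labelled IL-1052 or IL-2750 were most alike a mouse of the other of these lines, and the pair labelled IL-1052 correlated at -0.0714. Every other mouse with a line mate was most alike one of its own line. The Hamp2 share, the relations among line mates and some intraclass correlations are therefore given with and without these 5 mice. Other results include them unless stated. The depth was 20.5 to 34.0 M estimated fragments per mouse, with a median of 27.7 M, and the labels name no batch. The hepatocyte markers Alb, Ttr, Apoa1, Serpina1a and Cyp2e1 were high in every mouse, with a summed level of 19807 to 73106 FPKM (fragments per kilobase of transcript, scaled to the total of mapped fragments). In whole liver, fewer cells of a type and less RNA per cell cannot be told apart. Nothing in the labels says more of the mice than their line, weight and age, so the p-values measure the spread between these mice only.

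Hamp and Hamp2 lie side by side on the minus strand of chromosome 7, at chr7:31727390-31729036 and chr7:31707391-31709200 of mouse build mm9, and are near copies of each other. The 250 bases before each annotated start are shown because BMP and STAT3 signals are read there. They are from RefSeq on GRCm38.p6, at chr7:30944030-30944279 for Hamp and chr7:30924182-30924431 for Hamp2, both on the minus strand, written 5′ to 3′. Capitals mark the BMP-responsive element core GGCGCC and the STAT motif TTCNNNGAA.
Hamp: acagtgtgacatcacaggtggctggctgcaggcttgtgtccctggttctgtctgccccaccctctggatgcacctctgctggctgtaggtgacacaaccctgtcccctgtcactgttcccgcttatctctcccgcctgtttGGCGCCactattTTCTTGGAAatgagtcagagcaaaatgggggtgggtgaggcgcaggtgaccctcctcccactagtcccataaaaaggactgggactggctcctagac
Hamp2: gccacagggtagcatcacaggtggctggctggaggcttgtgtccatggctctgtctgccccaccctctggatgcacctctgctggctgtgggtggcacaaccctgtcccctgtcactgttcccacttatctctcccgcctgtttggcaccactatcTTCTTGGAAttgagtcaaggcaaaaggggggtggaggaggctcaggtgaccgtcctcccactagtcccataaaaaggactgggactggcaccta
Over the annotated windows of 300 bases, 50 after the start included, the promoters were identical at 276 of 303 aligned positions (91.1%). GGCGCC was found at -109 from the start in Hamp, a motif present in 11.9% of 32817 RefSeq mouse promoters of the same length. At the aligned place Hamp2 carried the substitution G4A, counted from 1 at the first base of the core in Hamp, and no GGCGCC was found in its window. The STAT motif, present in 8.29% of promoters, was found 1 time in each, at -97 in Hamp and -94 in Hamp2. The SMAD box GTCT, searched on both strands like the other motifs, was found 3 times in each (88.0% of promoters hold it) and the E-box CANNTG 2 times in each (72.3% hold it). Tfrc was the only other member with GGCGCC, at -89 in 1 of its windows, among the 6 members with a promoter entry. A match is a string of letters and not a measured binding site. All sequences shown here and below are those of the reference genome. The sequences of the lines were not examined and may differ from them.

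The ends of the coding sequences are shown because the mature peptide is cut from the end of the precursor and because reads from the near copies can be told apart here. They come from the transcript annotation on mm9, exon 3 of each gene, at chr7:31727496-31727573 for Hamp and chr7:31707527-31707604 for Hamp2 on the minus strand. Capitals mark the 14 bases that differ in the last 25 codons and the stop.
Hamp: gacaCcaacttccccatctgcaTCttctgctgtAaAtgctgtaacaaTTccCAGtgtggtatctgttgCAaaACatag
Hamp2: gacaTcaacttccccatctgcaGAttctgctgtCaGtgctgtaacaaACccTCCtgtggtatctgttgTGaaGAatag
These 78 bases were 82.1% identical, against 92.5% over the whole coding sequences of 252 and 255 bases. Outside this stretch the transcripts are closer, with an aligned block of 126 bases at 97.6%, so fragments from there were shared out between the genes by estimation.

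Hamp, the main hepcidin gene, ranged from 35.3 to 2907 FPKM over the mice, with a median of 777. The single mice of IL-2693 and IL-4032 were the lowest lines, at 160 and 168 FPKM. At the other end the single mouse of IL-2126 stood at 2907 FPKM, the mice of IL-4457 at 1870 and 2163, the single mouse of IL-4141 at 1971 and those of IL-521 at 1842 and 1924. The highest line mean was 18.1 times the lowest. Some line mates differed nearly as much as lines did: the mice of IL-2146 had 35.3 and 550 FPKM, a 15.6-fold difference, and those of IL-2680 had 1766 and 339. In other lines the mates were close, as in IL-611 with 942, 858 and 844 FPKM. With the lines of 2 or 3 mice in order of their mean, the ranges of 18 of the 20 neighbouring pairs overlapped. Neighbours in such an order are close by construction, so these counts, here and below, do not measure how well lines separate. Even Ftl1, whose line means spanned 1463-fold, had 16 of 20 pairs overlapping.

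Hamp2 spread far wider, from 57.6 to 13486 FPKM with a median of 456, and the highest line mean was 165 times the lowest. The lowest lines were IL-2011, with 106 and 57.6 FPKM, and the single mouse of IL-557, with 87.8 FPKM. The 3 mice of IL-785 had 206, 134 and 77.5 FPKM and those of IL-2156 had 79.5, 130 and 232. Far above them were the 3 mice of IL-611, at 3139, 2607 and 3352 FPKM, the pair of IL-519, at 3016 and 4477, and the single mouse of IL-4141, at 5375. The top value of 13486 FPKM was the single mouse of IL-2126, the shallowest library of all at 20.5 M fragments. Across lines, no member was related to depth at an unadjusted permutation p under 0.05, and Hamp gave r = -0.28 (permutation p = 0.139). Neighbouring lines again overlapped, in 17 of 20 pairs, although the groups at either end did not.

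**Figure D1:**
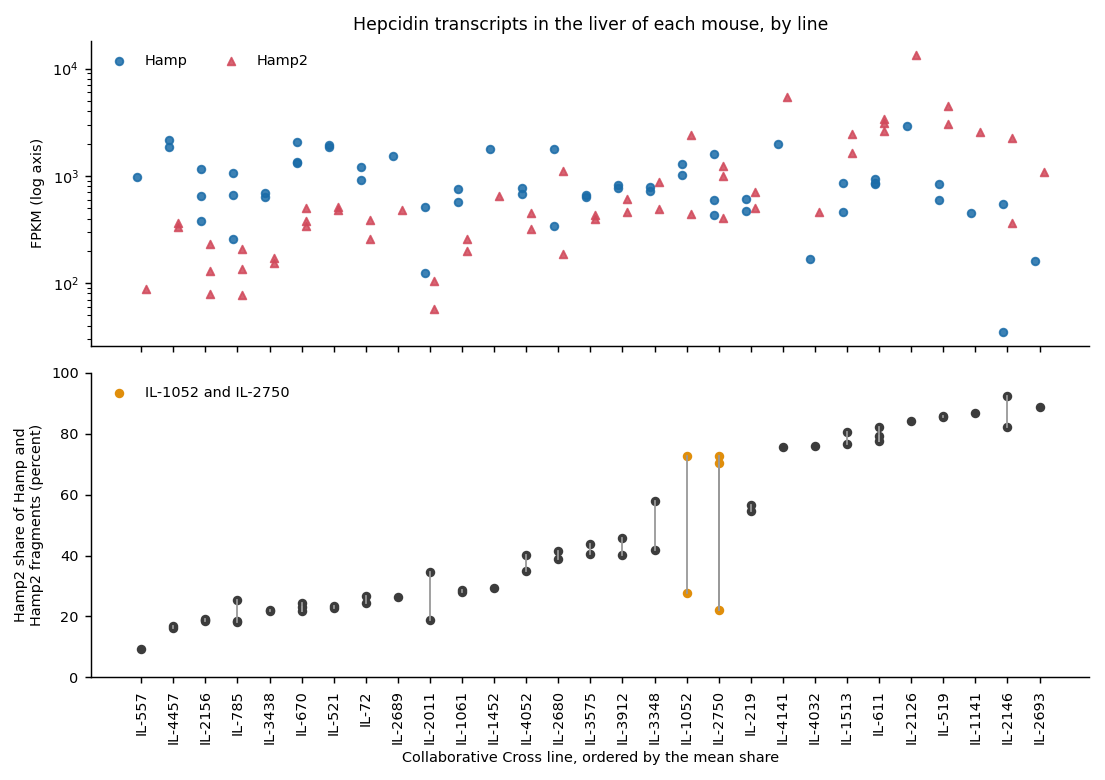
Upper panel, FPKM of Hamp (circles) and Hamp2 (triangles) in each mouse on a log axis; lower panel, the Hamp2 share of the fragments of both genes in percent, lines joined by a bar and ordered by their mean share. The share runs from 9.31% to 92.2% and line mates sit close together except in IL-1052 and IL-2750 (orange) and, less so, IL-2011, IL-3348 and IL-2146.

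The division of hepcidin transcripts between the genes differed widely among lines and was close between most line mates. The share of Hamp2 in the estimated fragments of Hamp and Hamp2 ran from 9.31% in IL-557 to 92.2% in a mouse of IL-2146, with a median of 38.7%. In 16 lines every mouse was under 50%, in 10 lines every mouse was over 50%, and in 3 lines (IL-1052, IL-2750 and IL-3348) mice fell on both sides. Of the 21 lines with 2 or 3 mice, 16 had an SD under 5 percentage points. IL-2156 stood at 18.9% ± 0.316 (SD, n = 3), IL-670 at 23.1% ± 1.43 (SD, n = 3) and IL-611 at 79.7% ± 2.22 (SD, n = 3). IL-519 stood at 85.5% ± 0.363 (SD, n = 2). The mice of IL-2680, far apart in Hamp level, had shares of 41.5% and 38.7%. The intraclass correlation, the part of the variance that lies between lines, was 0.829 for the share (jackknife SE over mice 0.125). Without IL-1052 and IL-2750 it was 0.975. The mice labelled IL-1052 had shares of 72.8% and 27.9%, and those labelled IL-2750 had 70.5%, 22.0% and 72.5%. As the near copies share sequence, the share is an estimate of RSEM and was not checked against reads.

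Without IL-1052 and IL-2750, Hamp and Hamp2 rose and fell together among line mates, but their levels were not found to be related across lines. Deviations of log2(FPKM + 1) from the line mean gave a Pearson r of 0.62 over 47 mice of 21 lines (two-sided permutation of mice within lines, p = 0.0619) and a Spearman rho of 0.56 (permutation p = 0.0159), with r = 0.48 without the 2 mice farthest out. Without IL-1052 and IL-2750 the same measure gave r = 0.93 and rho = 0.87 over 42 mice of 19 lines (permutation p = 1e-05, the smallest that 100000 permutations can give, and p = 5e-05), and r was 0.91 without the 2 mice farthest out. In 13 of the 16 lines with a pair of mice, the mouse with more Hamp also had more Hamp2, the others being IL-1052, IL-3348 and IL-3575. When all genes were fitted on Hamp within lines without IL-1052 and IL-2750 (limma with line as a term, chosen after seeing the data), Hamp2 rose by 0.74 log2 units per log2 unit of Hamp, with an adjusted p of 2.15e-08, among 0.174% of 10340 genes called. In the fit on Hamp2 the adjusted p of Hamp was 1.67e-08, among 0.0774% of genes called. With all 21 lines the adjusted p values of these fits were 0.0606 and 0.139. Across the means of the 29 lines, r was 0.23 and rho 0.12 (permutation p = 0.232 and 0.521), and r was 0.22 without IL-1052 and IL-2750. The difference between the relation within lines and that across lines was not tested.

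**Figure D2:**
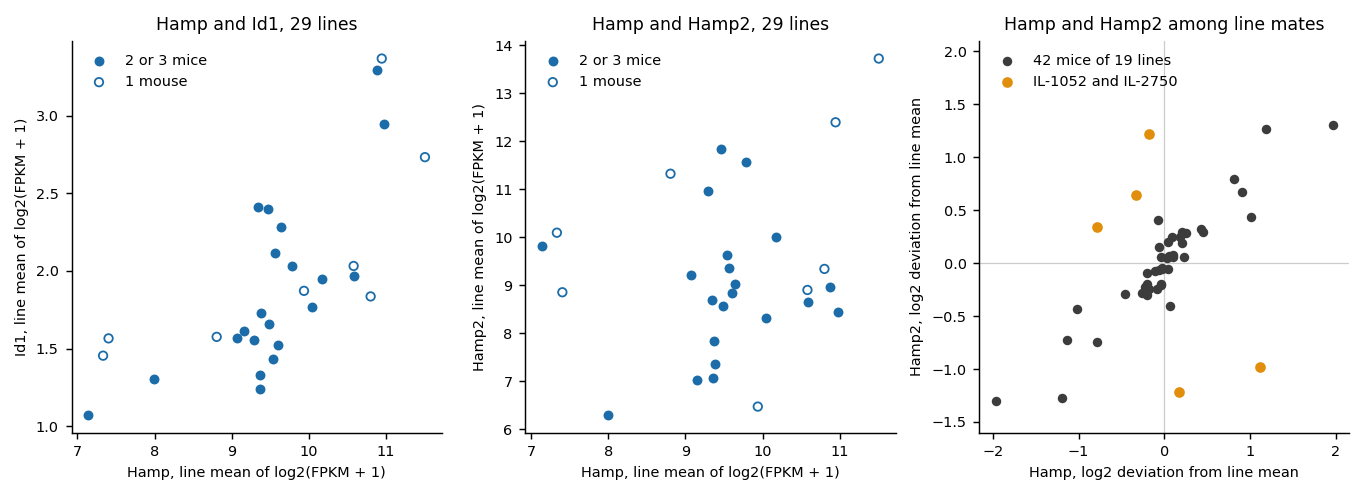
Line means of log2(FPKM + 1) for Hamp against Id1 (left) and against Hamp2 (middle), one point a line with open circles for lines of 1 mouse, and deviations of single mice from their line mean for Hamp and Hamp2 (right, log2 units). Id1 climbs with Hamp over the 29 lines (r = 0.70), no such order is seen for Hamp2 (r = 0.23), and among line mates the hepcidins lie along one diagonal apart from the mice labelled IL-1052 and IL-2750 (orange).

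Id1, an inhibitor of helix-loop-helix factors that BMP signalling switches on, was the member whose line means ran with Hamp. It ranged from 0.69 to 10.4 FPKM over the mice with a median of 2.41. The lowest line was IL-2146, with 0.96 and 1.26 FPKM, also the line with the lowest single Hamp value. The highest were the single mouse of IL-4141, at 9.33 FPKM, the pair of IL-521, at 10.4 and 7.45, the pair of IL-4457, at 7.88 and 5.72, and the single mouse of IL-2126, at 5.65. These 4 lines also held the 4 highest Hamp means. Neighbours in the order of lines overlapped in 19 of 20 pairs. Levels were low, with 17 to 257 fragments of Id1 per mouse, which limits the precision of single values.

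Across the 29 line means, Hamp and Id1 gave r = 0.70 and rho = 0.73 (two-sided permutation p = 2e-05 and 4e-05), and r = 0.68 without IL-2146 and IL-2693, the lines farthest out in Hamp. Of the 45 pairs of members it was the 1 pair that passed limma in both fits, with adjusted p of 0.0173 in the fit of all genes on Hamp, where 2.37% of 10340 genes were called, and 0.0040 in the fit on Id1, where 6.60% were called. Id1 had the highest r of all 10340 genes in the fit on Hamp, and Hamp ranked 26 in the fit on Id1. With any 1 line left out, r stayed between 0.67 and 0.73 and the larger adjusted p was at most 0.0470. Over the lines with 2 or 3 mice r was 0.72, but the adjusted p in the fit on Hamp was 0.110. Among line mates the pair gave r = 0.33 (permutation p = 0.0492) and rho = 0.19 (permutation p = 0.275), and r = 0.21 (permutation p = 0.234) without IL-1052 and IL-2750. The summed hepatocyte markers gave r = 0.50 with Id1 and 0.31 with Hamp across lines (permutation, adjusted p = 0.0961 and 0.477 over 90 pairs of member and marker list), and their part in the relation was not tested.

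Bmp6, the ligand that couples liver iron to hepcidin, was the lowest expressed member, from 0.20 to 1.5 FPKM with a median of 0.65 and 17 to 134 fragments per mouse. The lowest line was the single mouse of IL-1452, at 0.20 FPKM, followed by the pair of IL-2146, at 0.37 and 0.28. The highest line was IL-3575, with 1.5 and 0.89 FPKM, and the ranges of neighbours overlapped in 19 of 20 pairs. Bmp6 line means were not found to be related to those of Hamp (r = 0.11, permutation p = 0.583) in these untreated mice. They did run with the summed level of 5 sinusoidal endothelium markers, Stab2, Lyve1, Clec4g, Pecam1 and Kdr, with r = 0.79 and rho = 0.77 over 29 lines (two-sided permutation, adjusted p = 0.0009 for both over 90 pairs of member and marker list). The summed level was 11.6 to 66.1 FPKM over the mice, with a median of 30.7, and all 5 markers were above 0 in every mouse. Its lowest line was IL-2146 with 11.8 FPKM and its highest IL-219 with 51.7. The correlation stayed between 0.76 and 0.82 with any 1 line left out, and r was 0.74 without the 2 lines farthest out in the marker sum. Clec4g weighed most in this sum, with a median of 18.2 FPKM against 1.04 to 5.02 for the other markers. Clec4g alone gave r = 0.78 with Bmp6, so the sum is not independent evidence from each marker. The part of the endothelial markers in the Bmp6 differences was not tested.

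Smad7, the inhibitory SMAD that BMP signalling induces as a brake, ranged from 0.53 to 2.98 FPKM with a median of 1.51. Its lowest line was IL-4457, with 0.58 and 0.68 FPKM, one of the highest lines for Hamp and Id1. Its highest line was IL-670, with 2.27, 2.75 and 1.82 FPKM. The 3 mice of IL-785 had 0.53, 1.71 and 0.78 FPKM, so 1 line held the lowest mouse and a mouse above the median. All 20 pairs of neighbouring lines overlapped. Against Hamp its line means gave r = -0.13 (permutation p = 0.506), and against Id1 r = -0.39 (permutation p = 0.0350) and rho = -0.17 (permutation p = 0.391), a pair that limma did not call (adjusted p = 0.183 and 0.20).

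Over all 45 pairs of members, r across line means ran from -0.39 to 0.70 with a median size of 0.13. An unadjusted permutation p under 0.05 was reached by 5 pairs on r and by 2 on rho, with limma calling 1. Beside Hamp with Id1, the pairs on r were Hamp2 with Slc40a1 (r = -0.38), Hamp2 with Id1 (r = 0.40), Slc40a1 with Bmp6 (r = 0.39) and Id1 with Smad7 (r = -0.39), all with limma adjusted p of 0.145 or more. The relation of Hamp2 with Id1 fell to r = 0.14 without IL-2126 and IL-4141, and that of Slc40a1 with Bmp6 was r = 0.46 without IL-1141 and IL-521. The fits of all genes on the other members called 0% of 10340 genes for Hamp2, Tfrc, Trf and Fth1, 0.145% for Ftl1 (1.92% of 10338 genes for the sum of Ftl1 with its near copies), 1.04% for Slc40a1, 0.426% for Bmp6 and 1.87% for Smad7, with no member among them. Within lines, 4 of the 45 pairs had an unadjusted permutation p under 0.05 on r. Besides Hamp with Id1 these were Trf with Fth1 (r = 0.56), Slc40a1 with Smad7 (r = 0.47) and Bmp6 with Id1 (r = 0.49), and none of the 4 kept it without IL-1052 and IL-2750, where Hamp with Hamp2 was the 1 pair under 0.05.

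Slc40a1, which encodes the ferroportin that hepcidin removes, ranged from 18.6 to 77.3 FPKM with a median of 41.8. The lowest line was the single mouse of IL-1141, at 24.1 FPKM, and the lowest mouse one of IL-2146, whose pair had 18.6 and 34.2. The highest were the pair of IL-521, at 64.7 and 77.3 FPKM, and the single mouse of IL-557, at 67.4. Neighbouring lines overlapped in 18 of 20 pairs. Against Hamp its line means gave r = 0.23 and rho = 0.28 (permutation p = 0.227 and 0.141). Transcript levels do not show how much ferroportin protein hepcidin had removed.

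Tfrc, the receptor for iron-loaded transferrin, was low in liver, from 2.18 to 13.2 FPKM with a median of 4.88. Its lowest line was the single mouse of IL-2693, at 2.18 FPKM, which was also the lowest line for Hamp. Its highest line was the single mouse of IL-2126, at 13.2 FPKM, which was also the highest for Hamp and Hamp2. Among lines with more mice, IL-1061 was high, at 10.9 and 9.23 FPKM, and IL-4457 low, at 2.81 and 2.63. The 3 mice of IL-2156 were spread from 2.19 to 7.79 FPKM. Over all 29 lines the correlation of Tfrc with Hamp was r = 0.15 and rho = 0.06 (permutation p = 0.434 and 0.758).

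Trf, the plasma iron carrier secreted by hepatocytes, had the highest median FPKM of the members, at 3987 to 13064 with a median of 6309 over the mice. The lowest line was the single mouse of IL-4032, at 4441 FPKM. IL-2156 was the highest, with 7063, 13064 and 12660 FPKM in its 3 mice, and a mouse of IL-2146 had 11758 against 7428 in its mate. All 20 pairs of neighbouring lines overlapped. The line means ran with the summed level of 11 genes of the IL-6 and acute phase list, with r = 0.65 and rho = 0.69 (two-sided permutation, adjusted p = 0.0027 for both). They also ran with 3 neutrophil markers, S100a8, S100a9 and Ngp, with r = 0.62 (adjusted p = 0.0105). IL-2156 was the top line of both sums, with mean sums of 63087 and 66.3 FPKM, and without it the correlations were 0.51 and 0.52. Over the mice the acute phase sum ran from 2171 to 106514 FPKM and the neutrophil sum from 0.24 to 129 FPKM, with S100a9 and Ngp at 0 in some mice. Genes of high level dominate such a sum: in IL-2156, Saa1 and Saa2 had line means of 22456 and 24405 FPKM. The part of both lists in the Trf differences was not tested. Hamp was not found to be related to the acute phase sum across lines (r = -0.12, adjusted p = 0.860). The 3 relations of Bmp6 and Trf given here were the ones called of the 90, and the lists for hepatocytes, Kupffer cells, stellate cells, cholangiocytes, blood and lymphocytes gave none.

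**Figure D3:**
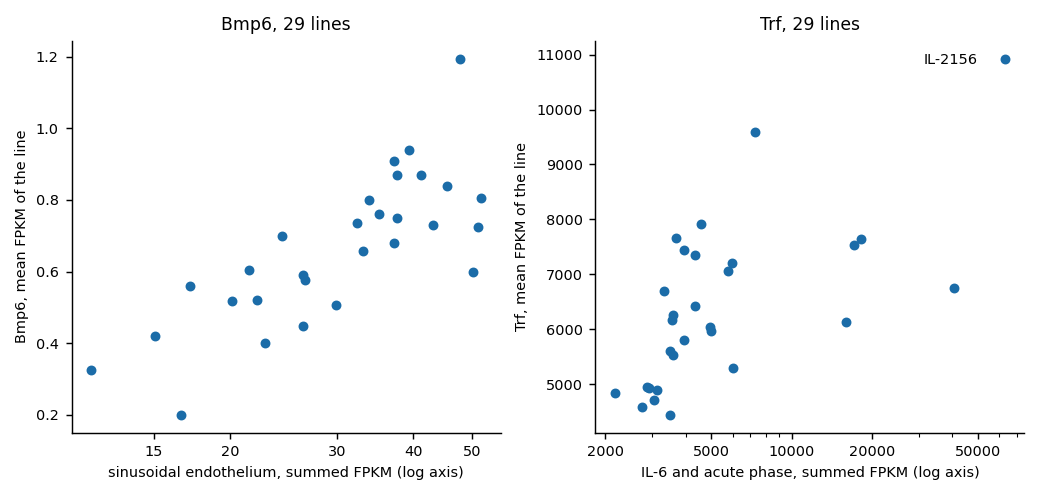
Left, mean FPKM of Bmp6 in each of 29 lines against the mean summed FPKM of 5 sinusoidal endothelium markers; right, mean FPKM of Trf against the mean summed FPKM of 11 acute phase genes, both horizontal axes on a log scale. Bmp6 is higher in lines with a higher endothelial sum (r = 0.79 on log2 values), with no further rise among the lines of the highest sums. For Trf the point of IL-2156 lies far out on both axes.

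Fth1, the ferritin heavy chain with the ferroxidase site, was the steadiest member, from 965 to 1636 FPKM with a median of 1210. The lowest line was IL-519, at 1000 ± 49.1 FPKM (SD, n = 2), and the highest the single mouse of IL-4032, at 1595. The 3 mice of IL-611 had 1517, 1502 and 1375 FPKM and those of IL-785 had 1310, 1374 and 1492, all above the median. The highest line mean was 1.59 times the lowest, and all 20 pairs of neighbouring lines overlapped.

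Ftl1, the ferritin light chain, had the widest range of all, from 2.41 to 4002 FPKM with a median of 2308, and the mice fell into 3 groups by how many of their light chain fragments were assigned to it. In 8 mice it was nearly absent: 3.06 and 2.41 FPKM in IL-219, 3.39 and 4.07 in IL-3575, 4.82, 4.38 and 4.23 in IL-785, and 3.40 in 1 mouse of IL-2146. The mate of that last mouse had 1722 FPKM. In the single mouse of IL-1141, the mice of IL-1052, IL-1061, IL-2750 and IL-4457 and that IL-2146 mouse, the level was 982 to 1722 FPKM. The other 36 mice, of 20 lines, had 1780 to 4002 FPKM.

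In the low mice, fragments of light chain sequence were assigned to near copies of Ftl1 in the annotation. Ftl1 lies at chr7:52713314-52715254 (mm9, minus strand), and 4 annotated genes matched its transcript at 97.4% identity or more over at least 90% of its length: Gm10116 on chromosome 13, Ftl2 on 4, Gm12164 on 11 and Gm15590 on 17. Gm10116, at chr13:74543844-74544765, is annotated as protein coding and the other 3 as pseudogenes. Its coding sequence differed from that of Ftl1 at 2 of 552 bases, G468A and G504A (Ftl1 first, counted from 1 at the start codon), both at codon position 3. The stretch that holds both is shown with these bases in capitals, because the coding sequences of these genes can be told apart only there. It is exon 4 of Ftl1 at chr7:52713513-52713573 (minus strand) and the single exon of Gm10116 at chr13:74544507-74544567 (plus strand), mm9.
Ftl1: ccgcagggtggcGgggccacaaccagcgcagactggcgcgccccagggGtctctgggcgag
Gm10116: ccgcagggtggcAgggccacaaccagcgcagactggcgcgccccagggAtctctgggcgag
In the 8 mice with almost no Ftl1 fragments, Ftl1 took 0.0750% to 0.147% of the fragments of all 5 genes, Gm10116 took 71.1% to 93.4% and Ftl2 took 6.36% to 28.5%. In the 11 mice of the middle group Ftl1 took 48.5% to 60.5%, Gm10116 took 38.8% to 50.3% and Ftl2 took 0% to 11.6%, the latter highest in the mouse of IL-2146 and in IL-1141. In the other 36 mice Ftl1 took at least 99.95%. The shares set these groups apart, while the listed levels of the middle and upper groups ran on from each other. Summed over the 5 genes the groups overlapped: the sum ranged from 2597 to 5222 FPKM in the low mice, 1656 to 3893 in the middle ones and 1780 to 4002 in the rest, with medians of 3258, 2531 and 2589 FPKM. A fragment assigned to Ftl2 weighs more in this sum than one assigned to Gm10116, as Ftl2 is annotated over fewer bases. In the first mouse of IL-2146, 36009 fragments of Ftl2 gave 2145 FPKM and 89763 of Gm10116 gave 3054. The sums of mice with Ftl2 fragments, among them all the low mice, are raised by this. Whether the fragments came from Ftl1 alleles that read like the copies or from the copies themselves was not tested, since no reads were used. The Ftl1 level as listed is therefore uncertain in the mice of the low and middle groups.

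**Figure D4:**
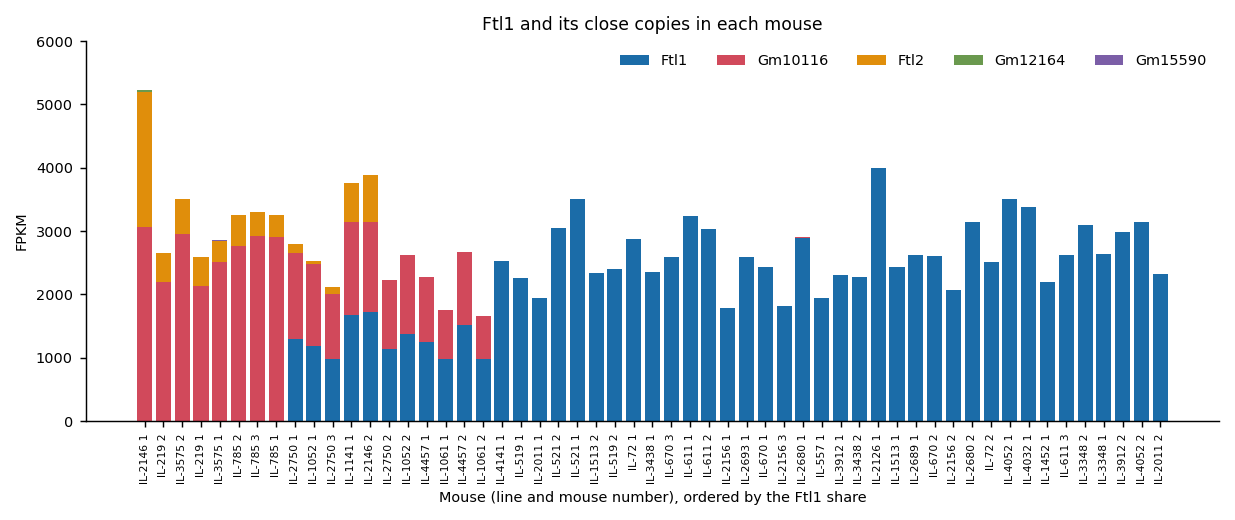
FPKM of Ftl1 and 4 near copies stacked in each of 55 mice, ordered by the Ftl1 share. The first 8 mice show almost no Ftl1 (blue), the next 11 a division with Gm10116 (red) and, in a few, Ftl2, and the other 36 Ftl1 alone, while the heights of the bars overlap between these groups.

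With the FPKM of the 5 genes summed, IL-1061 was the lowest line, at 1702 ± 64.6 FPKM (SD, n = 2), and IL-2146 the highest, at 4558 ± 940 (SD, n = 2), a 2.68-fold range in place of 1463-fold. The value of IL-2146 is raised by the greater weight of its Ftl2 fragments, so its top place and the width of the range are uncertain. The sum had r = 0.46 with Fth1 across line means (permutation p = 0.0126) and 0.42 with Hamp2 (permutation p = 0.0223), neither called by limma (smaller adjusted p = 0.184 and 0.158). Without the 2 lines farthest out in the sum, r was 0.31 with Fth1 and 0.42 with Hamp2. For Fth1, the other places of the genome that matched its transcript over most of its length were at most 88.0% identical.

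Differences among lines were tested over the 47 mice of the 21 lines with 2 or 3 mice, with edgeR's quasi-likelihood F test and Benjamini-Hochberg adjustment. They passed for 9 of the 10 members, in a panel where 88.5% of 15285 genes passed, so that passing says little of a gene here. Adjusted p was 6.33e-08 for Ftl1 (2.42e-05 for the sum), 1.49e-07 for Hamp2, 3.81e-05 for Id1, 0.000244 for Slc40a1, 0.000526 for Tfrc, 0.0016 for Trf, 0.0018 for Smad7, 0.0072 for Fth1 and 0.0082 for Bmp6. Hamp was the member that missed, with an adjusted p of 0.0763. Its SD among line mates was 0.86 log2 units, against 0.76 for Hamp2, 0.36 for Id1, 0.24 for Slc40a1 and 0.14 for Fth1. The call of Hamp rested on few mice: it passed without either mouse of IL-2146 (adjusted p = 0.0235 and 0.0022), without either of IL-2680 (0.0313 and 0.0397), without the first of IL-2011 (0.0330) and without the second of IL-2750 (0.0430). It also passed in DESeq2 (0.0027) and with no filter on low counts (0.0397).

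**Figure D5:**
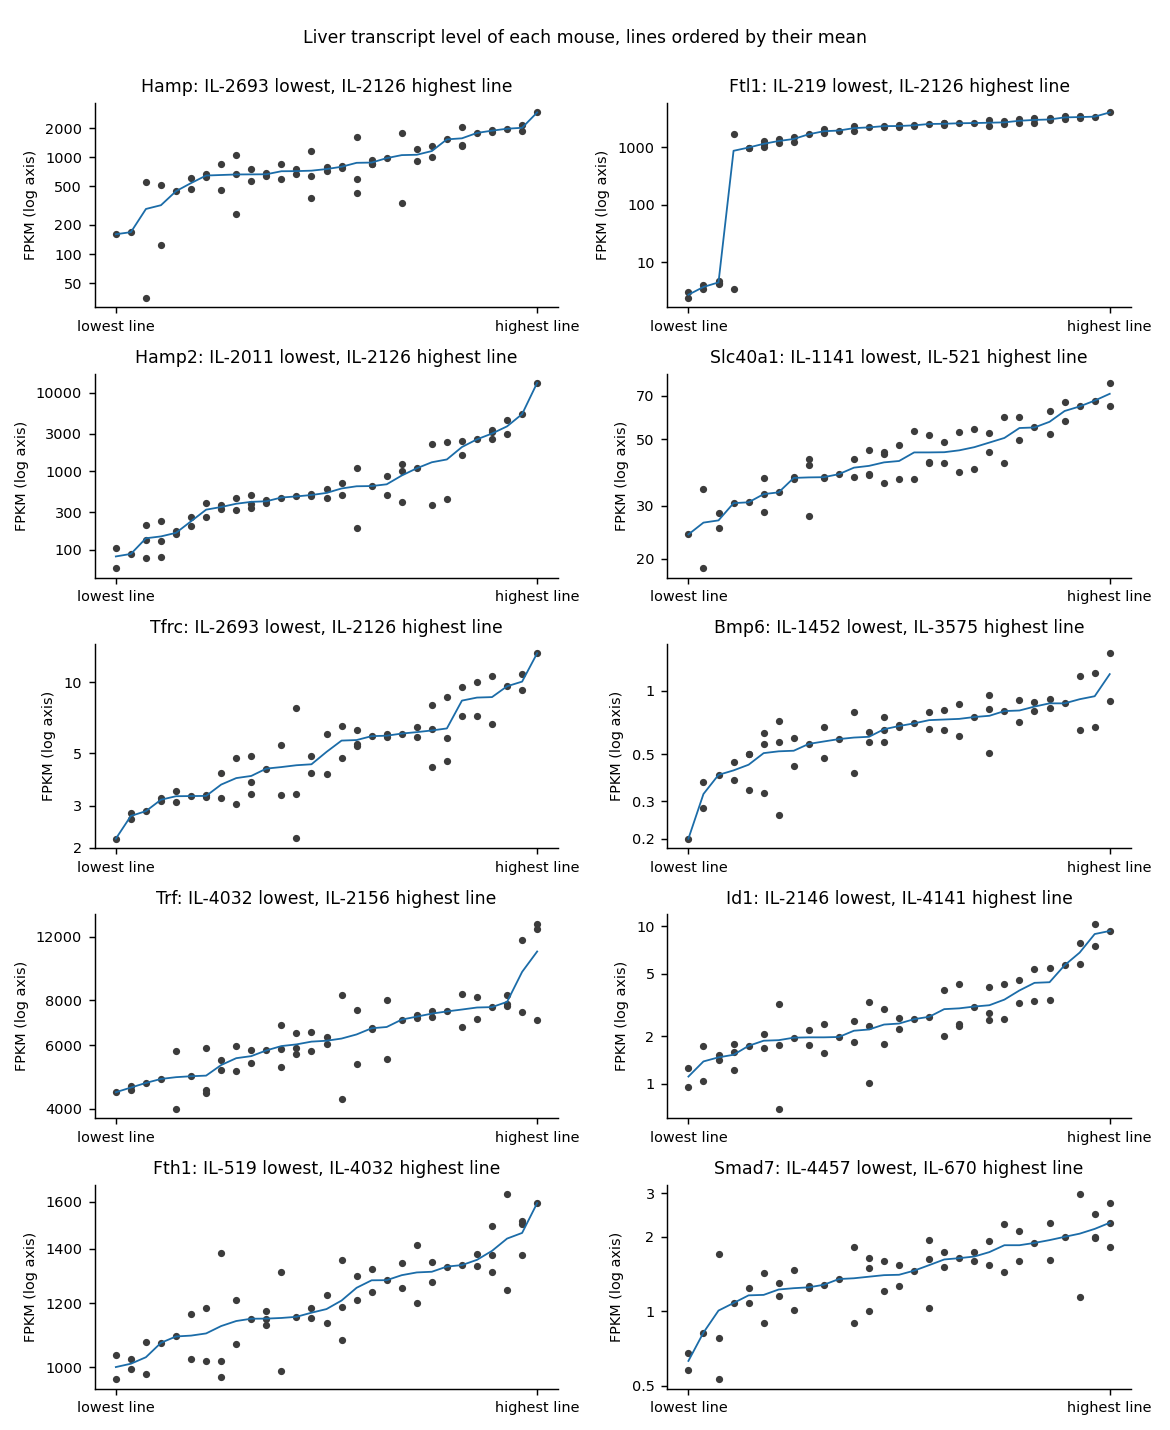
FPKM of each mouse (points, log axis) for the 10 members, lines ordered from the lowest to the highest mean separately in each panel, with the line means joined in blue. Hamp2 and Ftl1 span orders of magnitude between lines, Fth1 1.59-fold and Trf 2.46-fold, and Hamp has pairs of line mates as far apart as distant lines.

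The intraclass correlation of expression, on the rank scores used in the study, had a median of 0.527 over the members, against 0.592 over 5949 genes that passed the expression rules (quartiles 0.486 and 0.693). Ftl1 stood at 0.910 (jackknife SE 0.043; 0.810 for the sum), Hamp2 at 0.803 (SE 0.094), Slc40a1 at 0.656 (SE 0.106) and Tfrc at 0.604 (SE 0.194). Id1 stood at 0.539 (SE 0.168), Hamp at 0.515 (SE 0.189), Fth1 at 0.397 (SE 0.248) and Trf at 0.393 (SE 0.296). Bmp6, at 0.365 (SE 0.238), and Smad7, at 0.287 (SE 0.290), had too few rounded levels to pass the rules. Hamp2 was above 94.3% of the genes and Hamp above 31.1%. Without IL-1052 and IL-2750, Fth1 rose to 0.539, Id1 to 0.651 and Hamp to 0.570, while Trf and Ftl1 fell slightly, to 0.391 and 0.904. The differences between members were not tested, and the SEs of most were wider than the gaps between them.

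The 5 lines with 3 mice were each set against the mean of the other lines in the same edgeR fit, and 12 of the 50 combinations of line and member passed. In IL-2156, where 16.5% of genes were called higher and 10.2% lower, Trf was higher by 0.81 log2 units (adjusted p = 9.06e-05), Hamp2 lower by -1.96 (adjusted p = 0.0042) and Slc40a1 lower by -0.43 (adjusted p = 0.0176). The Slc40a1 call was lost without the first or the second mouse (adjusted p = 0.0522 and 0.175). Hamp itself differed by -0.18 (adjusted p = 0.849) in IL-2156, the line with the highest acute phase sum. In IL-611 (8.20% higher, 5.83% lower), Hamp2 was higher by 2.65 (adjusted p = 7.97e-07), while Hamp differed by 0.13 (adjusted p = 0.928). Fth1 was higher there by 0.32 (adjusted p = 0.0080), a call lost without the first or the second mouse (0.0800 and 0.0816) and with scaling to library totals (0.0558).

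In IL-670 (10.3% higher, 7.18% lower), Smad7 was higher by 0.80 log2 units (adjusted p = 0.0015) and Hamp by 1.09, which missed the threshold (adjusted p = 0.0646). In IL-785 (12.0% higher, 7.75% lower), Hamp2 was lower by -1.92 (adjusted p = 0.0064) and Fth1 higher by 0.29 (adjusted p = 0.0119). Both IL-785 calls were lost without the third mouse (adjusted p = 0.0719 and 0.132), and that of Fth1 with scaling to library totals (0.0939). Ftl1 passed in 4 of these lines, lower by -8.00 in IL-785 and higher by 1.24 in IL-2156, 1.98 in IL-611 and 1.80 in IL-670. With the copies summed the values were 0.27 (adjusted p = 0.0422), -0.50 (0.000436), 0.24 (0.0916) and 0.06 (0.777), so the direction turned in IL-785 and IL-2156 and the call ended in IL-611 and IL-670. Before summing, the call in IL-2156 was also lost without each of its mice in turn (adjusted p = 0.0950, 0.141 and 0.117). In IL-2750, one of the lines whose mice were most alike a mouse of another line, where 11.6% of genes were called higher and 5.65% lower, no member passed.

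Body weight and age were each fitted on line means with limma. For weight 0% of 10341 genes were called and for age 0%, and accordingly none of the members. At an unadjusted p under 0.05 there were 769 genes for weight, with Ftl1 the 1 member among them (not so for the sum), and 617 for age, with no member. Hamp rose by 0.086 ± 0.043 log2 units (SE) per gram, with an unadjusted p of 0.0538 and an adjusted p of 0.674. Only the mice of IL-785 differed in age from their line mates, so age was otherwise fixed by line.

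Of the isoforms of the members, 7 were abundant and variable enough to be tested on their percentage of the gene (limma on rank scores), and 3 passed, against 29.7% of 15055 isoforms. The test used the 47 mice of lines with 2 or 3, so lines of 1 mouse did not enter it. The 2 of Trf were ENSMUST00000035158 (adjusted p = 0.0248) and ENSMUST00000112645 (adjusted p = 0.0300). The first ranged from 58.4% in IL-2693 to 79.6% ± 0.226 (SD, n = 2) in IL-4052, and the second from 1.16% in IL-557 to 41.4% in IL-2693. In the single mouse of IL-557 a further isoform, ENSMUST00000168142, took 24.7%, against a mean of 5.27% over all mice. Both calls were lost without the second mouse of IL-219 (adjusted p = 0.0623 and 0.0694). The third was Ftl1 ENSMUST00000094434 (adjusted p = 0.0020), whose lowest values rest on as few as 8.3 estimated fragments in mice with almost no Ftl1. The main Tfrc isoform, ENSMUST00000023486, fell to 28.5% in the single mouse of IL-2126 and reached 98.1% in that of IL-2689. Neither of these mice was in the test, which gave this isoform an adjusted p of 0.138.

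Other genes of these pathways were read as 3 lists, chosen with earlier results of these data known. Among lines, edgeR passed 18 of 19 genes of iron sensing and BMP-SMAD signalling, 21 of 23 of iron uptake, storage and haem, and 11 of 11 of the IL-6 and acute phase list, against the 88.5% of all genes. Those that missed were Bmpr2 (adjusted p = 0.0653), Aco1 (0.0709) and Cybrd1 (0.197). In the fit on Hamp across line means, limma called 0 of 18, 0 of 21 and 0 of 11 genes tested, where 2.37% of all genes were called, a share at which lists this short would hold under 1 call each. Their median r of -0.08, -0.02 and -0.02 stood beside -0.09 over all genes. Hfe2, the hemojuvelin coreceptor of BMP, ran from 5.45 FPKM in IL-4141 to 38.8 in IL-2011 (r = -0.37 with Hamp). Smad1, which carries the BMP signal, ran from 2.67 FPKM in IL-785 to 7.55 in IL-4141 (r = 0.48 with Hamp, limma adjusted p = 0.0922). The BMP receptor Acvr1 ran from 1.70 in IL-4457 to 5.04 in IL-3438 (r = -0.20). Id2 and Id3, of the same list, gave r = 0.08 and 0.15 with Hamp and 0.26 each with Id1. Steap3, which reduces iron in endosomes, ran from 0.65 FPKM in IL-219 to 13.8 in IL-72. The acute phase proteins were highest in IL-2156: Lcn2 at 1861 FPKM, Hp at 9041, Apcs at 1137, Orm1 at 6097 and Orm2 at 2273, while Lcn2 was 0.40 in IL-557. In the fit on Id1, Smad1 (r = 0.53, adjusted p = 0.0446) passed among 18 genes of its list and Ncoa4 (r = 0.59, adjusted p = 0.0313), which delivers ferritin for breakdown, among 21 of its list, with 0 of 11 of the acute phase list. These shares were near the 6.60% of all genes called in that fit, and both genes were singled out after their values were seen.

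For each member, the 3 genes with the most similar line means were taken by Pearson r over 29 lines among 10339 genes. For Hamp they were Id1 (0.70), Rg9mtd1 (0.68) and Nipal1 (0.64), and for Hamp2 Gm1840 (0.68), Hspa1a (0.66) and Ndufb3 (0.66). For Id1 they were Rnf39 (0.84), Egr1 (0.79) and Zfp948 (0.77), and for Smad7 Asb7, Rffl and Bmf, all at 0.70. For Bmp6 they were Cd300lg (0.82), Clec4g (0.78), which is itself in the endothelial list above, and Aqp1 (0.77). For Slc40a1 they were Azi2 (0.75), B230219D22Rik (0.72) and Nr3c1 (0.71), for Tfrc Helq, Setd4 and Mycbp (0.66 each), for Trf Vtn, Serpina10 (0.71 each) and Serping1 (0.70), and for Fth1 Mtx1 (0.69), Sap130 (0.68) and Rabac1 (0.67). The genes nearest to Ftl1 were Svip (0.85), Irf3 (0.70) and Saa4 (0.70), and all 3 lie on chromosome 7 with it, at distances of 6.54, 0.455 and 1.27 Mb. These rest on the listed level of Ftl1. For the sum with its copies they were Timm13 (0.79), Gnl1 (0.77) and Aldh7a1 (0.76) among 10337 genes, none of them on chromosome 7, and Svip, Irf3 and Saa4 had r of -0.29, 0.18 and -0.06 with the sum.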

How the data were processed

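Liver RNA-seq of 55 mice was used. The authors aligned reads to mm9 and estimated expression per gene and isoform with RSEM 1.2.18 (submitters' processing notes). The authors deposited the RSEM estimated count, TPM and FPKM of each gene, and for isoforms also the percent of the gene. TPM served only as an alternative scale. Counts were rounded for edgeR 4.0.16 (quasi-likelihood F test, TMM, filterByExpr), run on the 21 lines with 2 or 3 mice, and for DESeq2 1.42.0. edgeR gives no SE for its contrasts, so values per mouse are printed.

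FPKM were used as log2(FPKM + 1), for genes with a mean of at least 1 FPKM, in limma 3.58.1 fits on line means and in correlations with 100000 permutations, two-sided. Adjusted p-values are Benjamini-Hochberg over all features tested, called under 0.05. Fold changes on the log2(FPKM + 1) scale understate those of low genes. The intraclass correlation used the rank-normal scores of values rounded by the study's rules (highest FPKM of at least 2, steps of the highest value over 200 with a floor of 0.5, at least 12 levels). Isoforms were tested where their mean lay between 5% and 95% of the gene.

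The symbols of the 10 members were carried by 11 gene identifiers, as Trf is listed under 2, and the one with the higher mean was used. Hjv, Tfr2, Flvcr1 and Adgre1 are listed as Hfe2, Trfr2, Mfsd7b and Emr1. Near copies of Ftl1 were found with blastn 2.17.0 (at least 95% identity over at least 90% of the transcript), and their deposited FPKM and counts were summed with those of Ftl1, a step chosen after seeing the data. Promoters are from RefSeq (GRCm38.p6) and coding sequences from the mm9 annotation, and motifs were searched on both strands.

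The members and gene lists were chosen with earlier results of these data known. Named besides the members were the 3 genes with the highest correlation to each member and, of each pathway list, the 3 with the lowest adjusted p among lines and any called in the fit on Hamp or Id1. Id2, Id3, Saa1 and Saa2 were added after their values were seen. The edgeR tests, the limma fit on a covariate and the limma test of scores among lines were checked on simulated data. The permutation tests, the limma fits with line as a term, DESeq2 and the intraclass correlations were not. Alternatives were other scalings, filters, pseudocounts, tools and line sets, and each mouse left out in turn, with the trend of the dispersion and the gene filter kept from all mice. Other software was Python with pandas 2.3.3, numpy 2.4.6, scipy 1.17.1 and matplotlib 3.10.9.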

Additional observations from a re-analysis of the deposited data

How the results depend on the processing

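Of 435 recomputed summary values, 428 were scored as unchanged. Counts were scored so within a set ratio of the main count, and intraclass correlations within their jackknife SE. The Hamp to Id1 correlation was scored so if it kept its direction and side of the threshold. As the SE was computed from the runs that leave out 1 mouse, those runs could hardly be scored otherwise. With lines of 2 or 3 mice only, the correlation of Hamp with Id1 across lines was 0.716 with a limma adjusted p of 0.110, and 0 of 45 pairs were called in place of 1. The intraclass correlation of the Hamp2 share rose from 0.829 to 0.975 without IL-1052 and IL-2750. The 4 pairs within lines at an unadjusted permutation p under 0.05 became 1 without those lines. By a stricter rule, an adjusted p under 0.05 in both limma fits of a pair with line as a term (chosen after seeing the data), there were 0, 0 without IL-2146 and 1 without IL-1052 and IL-2750. With all lines, Hamp in the fit on Ftl1 (adjusted p = 0.0130) and Trf in the fit on Fth1 (0.0368) passed in 1 of their fits. With Ftl1 copies summed, the log2 difference of Ftl1 turned to -0.50 in IL-2156 and 0.27 in IL-785. Leaving out each mouse or line in turn gave 9 to 10 members called among lines, 10 to 17 calls of single lines, a median intraclass correlation of 0.493 to 0.590, 1 pair across lines with a Hamp to Id1 correlation of 0.672 to 0.726, 0 members related to weight or age, an intraclass correlation of the share of 0.817 to 0.918 (highest without the second mouse of IL-2750) and 2 to 4 isoforms. Of 2371 values for single genes, 2326 were the same, 27 lost and 12 gained the threshold. No paired analysis was made, as the line is the only factor of the design. The labels carry no replicate numbers, and the mice of a line are numbered in the order of the samples. Bmp6 and Id1 rest on as few as 17 fragments a mouse, 8 lines on 1 mouse, and the Hamp2 and Ftl1 values on how RSEM divided fragments between near copies.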
